A study of Homo sapiens with 30 samples.

Results

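The 6 libraries compared here are the IL1b- and TNFa-treated libraries of TeloHAEC, out of 30 chromatin accessibility libraries in the series. They were chosen by their titles, 3 biological replicates per cytokine, and were set against each other directly. TeloHAEC is a single line of human aortic endothelial cells immortalised with telomerase, of parental genotype, kept in a LifeLine endothelial medium that contains VEGF. Its cells received 10 ng/ml of recombinant human IL-1beta (the IL1b group) or 10 ng/ml of recombinant TNF-alpha (the TNFa group) for 24 h. All 6 libraries belong to preparation day 1. The 3 TeloHAEC controls of that day, in the same medium with no cytokine, are quoted beside the results as a reference level. Libraries of Eahy926, a human endothelial hybrid line grown without added VEGF, and given the same cytokines, are quoted for a few regions and for the difference between lines. The cells of 1 well per library were lysed and cut with Tn5, an enzyme that inserts sequencing adapters where DNA is not covered by nucleosomes, so a peak of insertions marks an open region.

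IL-1beta and TNF-alpha use different receptors. IL-1beta binds IL1R1, which recruits MYD88, IRAK kinases and TRAF6, while TNF-alpha binds TNFRSF1A and TNFRSF1B, which recruit TRADD, RIPK1 and TRAF family members. Both routes meet at the kinase IKBKB and release NF-kB, whose best known targets in endothelium are adhesion molecules (SELE, VCAM1, ICAM1), chemokines (CCL2, CXCL8) and its own inhibitors (NFKBIA, TNFAIP3). Both also activate AP-1 factors. The comparison asks which open regions differ between the cytokines and which they share.

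The deposited files are peak lists, one per library, so strength is given here as a place: 1 is the peak with the smallest p of its library. Every list was shortened to 49774 autosomal peaks, and the 45000 best are called strong. The strong peaks of the 6 libraries defined 68603 regions that reach 250 bp to either side of a summit, of which 46737 had a strong peak in at least 3 libraries and were tested. The rank score of a region is log2 of 49775 over the place, and 0 without a peak, so 1 unit is a doubling of the place. Distances run from the centre of a region to a gene start, and a region within 50 kb of a listed gene is named after it without a claim that it acts on it. In these bulk samples a change in the share of cells with an open region and a change in openness per cell cannot be told apart.

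One library stood apart by depth. TNFa replicate 3 had 3598755 tags after removal of duplicates, and the other 5 had 8014782 to 9626862. It listed 67804 autosomal peaks, against 106353 to 115794. The Jaccard index, the bases covered by strong peaks of both libraries of a pair over those covered in either, was 0.519 to 0.527 for the pairs with that library and 0.579 to 0.600 for all other pairs. Counts of one-sided and non-overlapping regions are given with and without it. Among marker promoters (within 1 kb of the start), 5 of 10 endothelial ones had a strong peak in at least 3 of the 6 libraries, with KDR and EGFL7 in all 6, CDH5, ERG and TIE1 in 5, and PECAM1, ESAM and CLDN5 in none. Of the others, 0 of 6 epithelial, 0 of 5 blood cell and 3 of 5 mesenchymal promoters (ACTA2, COL1A1 and PDGFRB) had one in at least 3.

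Only 3 listed genes had a region at their start (within 1 kb) that was strong in all 3 libraries of one cytokine and in 0 of 3 of the other. They are CSF2, which encodes the growth factor GM-CSF, N4BP1, which encodes a restraint on NF-kB signalling, and PDGFRB, a growth factor receptor typical of mesenchymal cells. The 250 bases before each start are shown because these promoters met that condition. Other starts, such as those of CXCL1, CXCL2, CCL5 and IRF1, had groups that did not overlap but did not meet it. They are RefSeq sequences of build GRCh38.p14, 5′ to 3′ in the direction of the gene, CSF2 at chr5:132073539-132073788 on the plus strand, N4BP1 at chr16:48610181-48610430 and PDGFRB at chr5:150155846-150156095 on the minus strand. Capitals mark matches, on either strand, to a 10-letter NF-kB consensus, to the AP-1 motif TGANTCA or to the interferon-stimulated response element, the interferon response motif.
CSF2: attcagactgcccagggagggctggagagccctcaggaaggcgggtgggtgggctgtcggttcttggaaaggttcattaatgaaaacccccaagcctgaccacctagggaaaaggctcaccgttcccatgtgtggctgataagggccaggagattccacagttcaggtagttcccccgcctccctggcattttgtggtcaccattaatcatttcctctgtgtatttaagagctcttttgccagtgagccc
N4BP1: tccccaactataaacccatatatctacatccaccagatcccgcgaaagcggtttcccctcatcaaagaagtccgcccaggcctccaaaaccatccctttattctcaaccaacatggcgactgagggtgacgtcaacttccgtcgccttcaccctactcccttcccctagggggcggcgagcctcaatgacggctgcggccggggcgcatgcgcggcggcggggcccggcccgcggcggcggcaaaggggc
PDGFRB: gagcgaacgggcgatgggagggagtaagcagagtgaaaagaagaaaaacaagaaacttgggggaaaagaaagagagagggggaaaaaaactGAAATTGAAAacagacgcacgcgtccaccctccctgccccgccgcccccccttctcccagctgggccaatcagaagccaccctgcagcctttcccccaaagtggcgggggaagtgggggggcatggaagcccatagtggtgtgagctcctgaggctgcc
The only match lies in PDGFRB, to the interferon response motif. Of 35116 RefSeq promoters of the same length, 5.21% held the NF-kB consensus, 6.57% the AP-1 motif and 3.02% the interferon response motif.

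Most tested regions were common to both cytokines. Of the 46737 tested regions, 25239 (54%) were strong in all 6 libraries. Testing required a strong peak in at least 3 libraries, which raises this share. Before that filter there were 68603 regions. At the other end, 589 (1.26%) were strong in 3 of 3 IL1b and 0 of 3 TNFa libraries, and 413 (0.884%) in 3 of 3 TNFa and 0 of 3 IL1b libraries. Without TNFa replicate 3, when only 2 TNFa libraries had to lack or hold the peak, these counts over all 68603 regions were 1028 and 1021. They were 1139 and 1045 without TNFa replicate 1, and 1246 and 1103 without TNFa replicate 2. Without 1 IL1b replicate they were 1185 and 826, 1214 and 815, and 1221 and 792. Regions strong in 2 TNFa libraries alone were not among those tested. The looser rule for TNFa was the same whichever TNFa library was left out. With TNFa replicate 3 left out and the longer lists of the other 5 libraries, the counts were 1872 and 1484. That setting was chosen after seeing the data. Why the counts were close without TNFa replicate 3 at the main list length was not tested. The mean Jaccard index was 0.573 within a cytokine and 0.564 between cytokines, a difference of 0.00930. An exact two-sided permutation test over all 10 ways to split the 6 libraries gave p = 0.1, the smallest it can give. The difference turned negative when any 1 of the IL1b replicates was left out (-0.002631, -0.003477 and -0.003181).

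**Figure D1:**
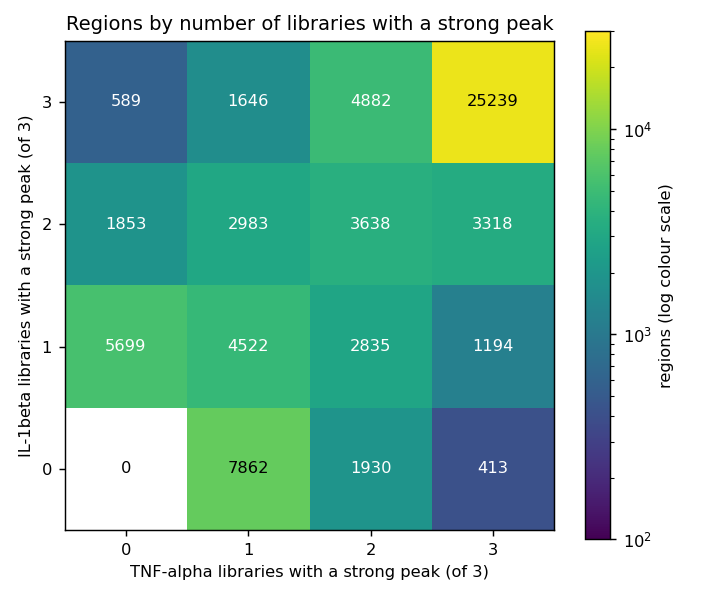
Number of regions by how many of the 3 IL1b libraries (vertical) and how many of the 3 TNFa libraries (horizontal) held a strong peak, with colour on a log scale. The corner with all 6 libraries holds 25239 regions, and the corners with 1 cytokine alone hold 589 and 413.

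The one-sided regions had poorer places than the shared ones, which is partly fixed by how the sets were defined. A one-sided region had no strong peak with the other cytokine, while a shared region had a strong peak in every library. The gaps in place and width thus cannot show whether one-sided regions are weaker beyond this selection. For the 589 IL1b regions the middle of the 3 IL1b places had a median of 32287, and for the 413 TNFa regions the middle TNFa place had a median of 34056, against 14209 over the 25239 shared regions. Only 9 of the 589 and 3 of the 413 had a middle place of 10000 or better, compared with 8653 (34.3%) of the shared regions. Their peaks were also narrower, with a median width of 271 bp and 281 bp against 460 bp for the shared ones. Few were closed under the other cytokine. In the whole deposited lists, 533, 551 and 297 of the 589 IL1b regions had a weaker peak in TNFa replicates 1, 2 and 3, and 19 had none in any. Of the 413 TNFa regions, 409, 403 and 403 had a peak in IL1b replicates 1, 2 and 3, and 0 lacked one in all 3.

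In the controls, 295 (50.1%) of the 589 IL1b regions were strong in 0 of 3 libraries and 77 (13.1%) in 3 of 3. Among the 413 TNFa regions, 69 (16.7%) were strong in 0 of 3 controls and 99 (24.0%) in 3 of 3. Over all tested regions, 7.17% were strong in 0 of 3 controls and 67.6% in 3 of 3. Regions strong in all 6 treated libraries were strong in 3 of 3 controls in 90.8% of cases. The contrast between the one-sided sets shrank when a TNFa library was left out, but not when an IL1b library was. With 1 TNFa library left out, TNFa regions needed 2 strong peaks, and the sets were taken from all 68603 regions, tested or not. Leaving out TNFa replicate 3, the shares strong in 0 of 3 controls were 39.9% for IL1b and 27.3% for TNFa. Leaving out TNFa replicate 1 they were 36.4% and 31.6%, and leaving out TNFa replicate 2 they were 32.7% and 33.7%. With 1 IL1b library left out, IL1b regions needed 2 strong peaks, and the sets again came from all 68603 regions. Leaving out IL1b replicates 1, 2 and 3 in turn, the shares were 48.44%, 51.15% and 51.92% for IL1b. For TNFa they were then 13.08%, 13.62% and 13.76%.

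**Figure D2:**
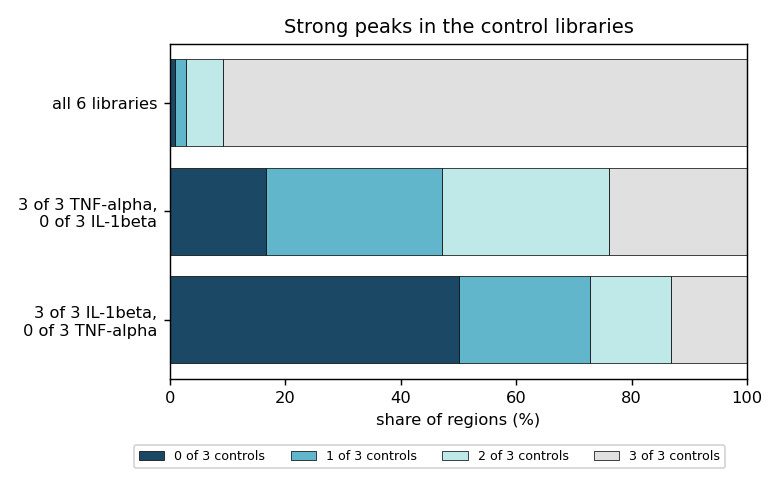
Share of regions (horizontal axis, percent) that held a strong peak in 0, 1, 2 or 3 of the 3 TeloHAEC controls, for regions strong with 1 cytokine alone and for regions strong in all 6 libraries. The 0-of-3 share is 50.1% for IL1b, 16.7% for TNFa and 0.816% for the shared regions.

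A small set of regions was open with both cytokines and weak or without a peak in the controls. Strong peaks in all 6 treated libraries and in 0 of 3 controls were found in 206 regions (0.441% of those tested). Of these, 5 lay near a listed gene, beside 1352 of all 46737 tested regions. The region 19.6 kb before the start of CCL2, which encodes the monocyte attractant MCP-1, is chr17:32562405-32562905. It had places 9007, 8309 and 4561 with IL1b, 17427, 25390 and 9529 with TNFa, and no peak in any control. Every IL1b library placed it above every TNFa library, and all 6 placed it above the controls. The difference was 1.21 ± 0.78 (SE, adjusted p = 0.810), so its order between the cytokines did not pass the test. With lists ordered by fold enrichment instead of p it turned to -0.44.

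A region 30.2 kb beyond the start of NRP2, a co-receptor for VEGF and semaphorins, had places 8110, 13071 and 15398 with IL1b, 16408, 16624 and 16417 with TNFa, and 1 control peak, at place 46531. The region 20.2 kb beyond the start of LIF, a cytokine of the IL-6 family, had places 23369, 14044 and 28511 with IL1b, 42326, 34280 and 35781 with TNFa, and no control peak. In both, the groups did not overlap and IL1b was the stronger, with differences of 0.49 ± 0.71 and 0.82 ± 0.49 that did not pass (adjusted p = 0.927 and 0.802). The remaining ones lay 31.9 kb before the start of GATA2 and 4.7 kb beyond that of FLT1. GATA2 is a transcription factor of endothelium and FLT1 a VEGF receptor. At both of them the places of the cytokines overlapped and no control had a peak.

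Regarding single regions, limma called 2 of 46737 (0.00428%) stronger with IL1b and 0 (0%) stronger with TNFa. At an unadjusted p under 0.05 there were 3025 (6.47%), 1739 stronger with IL1b and 1286 with TNFa. The median difference over all tested regions was -0.01. The first called region, chr1:32178238-32178738, had places 2049, 982 and 6726 with IL1b and no peak in any TNFa library or in controls 1 and 2, with control 3 at 39208. Its difference was 4.38 ± 0.79 (adjusted p = 0.0335). The second, chr1:144892169-144892669, had places 1480, 5571 and 574 with IL1b, 44585 in TNFa replicate 2 and none in the other two. Here the difference was 4.84 ± 0.85 (adjusted p = 0.0335). Control 2 placed this region at 1505, within the IL1b places, control 3 at 7422, behind them, and control 1 had no peak. Neither lies near a listed gene. When TNFa replicate 3 was left out the adjusted p was 0.0520 for the first and 0.0448 for the second. Neither was called when TNFa replicate 1 or TNFa replicate 2 was left out, with differences of 4.38 for the first and 4.81 and 4.89 for the second, and neither was called without the trend or with an overlap of 80%. The first fell to 2.12 with lists ordered by fold enrichment, and the second to 1.29 with an overlap of 1 bp, both no longer called. So few calls do not show that the regions were equally open with both cytokines.

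When the 12 TeloHAEC libraries of day 1 (both cytokines, controls, and cells without VEGF) shared one estimate of the spread, 104 regions (0.223%) were stronger with IL1b and 1 (0.00214%) with TNFa, at an adjusted p under 0.05. Of the 104, 52 were among the 589 with strong peaks in IL1b alone. No peak in the shortened list of any TNFa library was found for 45. Strong peaks in 0 of 3 controls were seen for 64, beside 7.17% of all tested regions. The controls were part of this fit, and libraries without a peak all score 0 and add no spread. The count of 64 is thus partly set by the fit. The single region stronger with TNFa, chr7:87447536-87448036, had places 33432 and 48896 in IL1b replicates 1 and 2 and none in replicate 3, against 12079, 11565 and 24962 with TNFa, and no control peak. Without TNFa replicate 3 the same fit called 57 regions, 47 stronger with IL1b and 10 with TNFa, and 43 of them were among the 105. The split of 104 to 1 thus became 47 to 10 without that library.

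**Figure D3:**
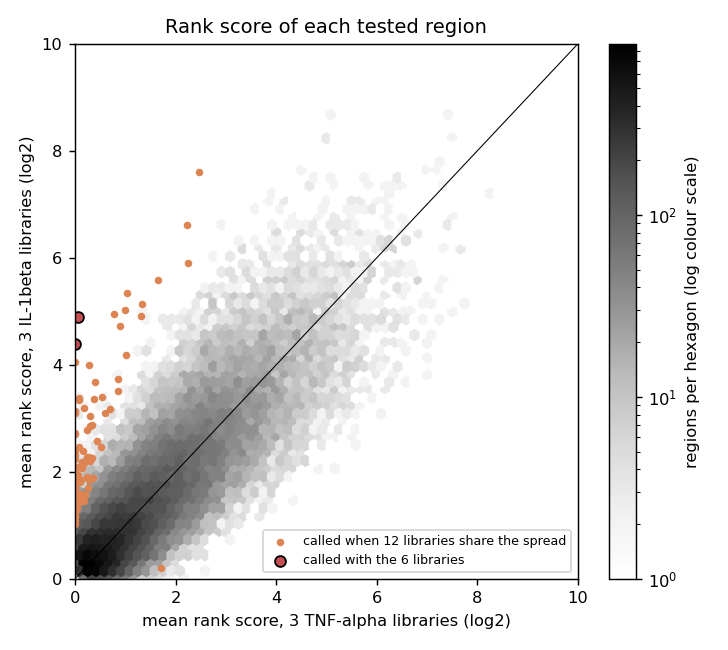
Mean rank score (log2) of each tested region over the 3 TNFa libraries (horizontal) and the 3 IL1b libraries (vertical), shaded by the number of regions on a log scale, with the line of equal scores. The 2 regions called with 6 libraries and the 105 called when 12 libraries share the spread lie at the edge of the cloud, 104 of the 105 above the line.

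Of those 105, 3 lay near a listed gene, a share close to that of all tested regions (1352 of 46737). The region 41.3 kb beyond the start of TAL1, a transcription factor of blood and endothelial development, is chr1:47655814-47656314. It had places 26852, 7736 and 15739 with IL1b and no peak in any TNFa library or control. With 12 libraries the difference was 1.75 ± 0.34 (adjusted p = 0.0174), and with 6 it did not pass (0.760). A region 9.1 kb before TGFBR2, a receptor for TGF-beta, chr3:30638610-30639110, had places 21484, 28092 and 24403 with IL1b and again no peak in any TNFa library or control. Its difference was 1.02 ± 0.23 with 12 libraries (adjusted p = 0.0452) and did not pass with 6 (0.760). In Eahy926 this region held a strong peak in all 6 cytokine libraries, at places 16443 to 24379, while the TAL1 region held none.

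The third, 40.1 kb before CCL26, an eosinophil attractant, is chr7:75458917-75459417. Places were 8280, 13815 and 9689 with IL1b, 31139 and 39066 in TNFa replicates 1 and 3 with none in replicate 2, and 44900 in control 3 alone. The groups did not overlap, and the difference was 1.92 ± 0.41 with 12 libraries (adjusted p = 0.0369). A different region of CCL26, 12.98 kb beyond its start, was strong in TNFa alone, at 39161, 23874 and 37383, with no IL1b peak and 1 control at 38168. Leaving out TNFa replicate 3, the 12-library adjusted p was 0.0571 for TAL1, 0.128 for TGFBR2 and 0.0791 for CCL26, so none of these calls held without it.

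**Figure D4:**
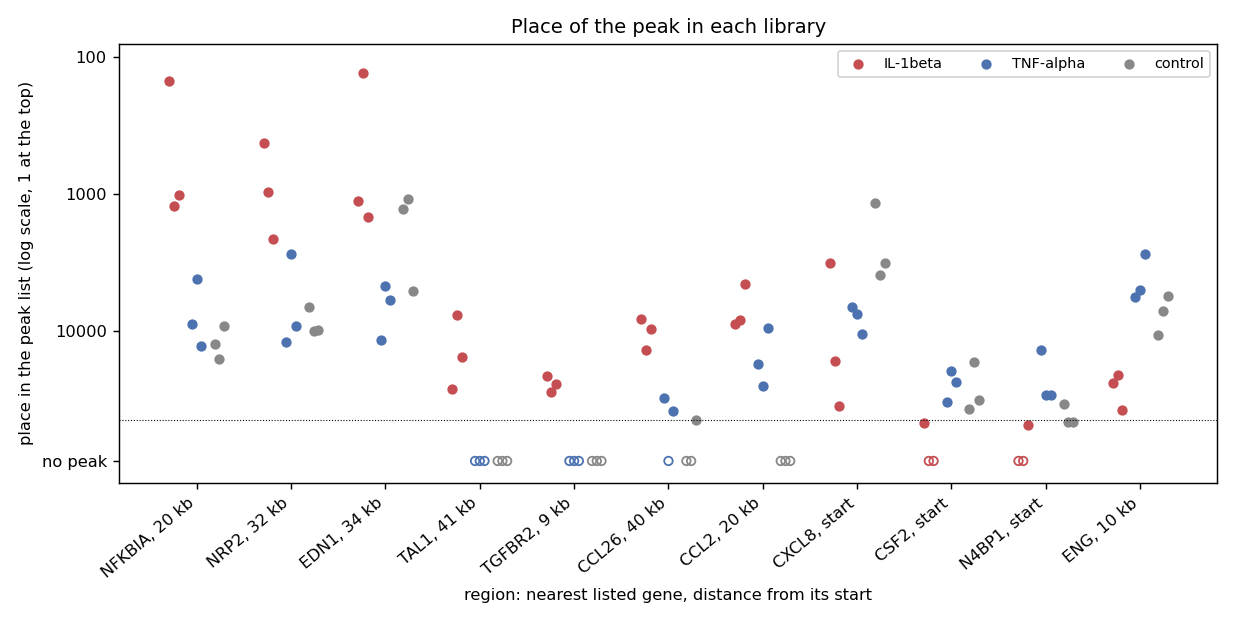
Place of the peak in each library (vertical log axis, 1 at the top) for 11 regions named by the nearest listed gene and the distance from its start, with IL1b, TNFa and control libraries as 3 points each. Open circles stand for no peak in the shortened list and the dotted line is the place of 45000. The IL1b points lie above the TNFa points at NFKBIA, NRP2 and EDN1, TAL1 and TGFBR2 have no TNFa or control peak, and ENG has all TNFa points above the IL1b points.

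At the loci of the receptors and their adaptors no region was called. Of 50 regions near 17 genes of IL-1 receptor signalling, 28 (56%) were strong in all 6 libraries, and of 108 near 22 genes of TNF receptor signalling 55 (50.9%), against 54% over all tested regions. In the IL-1 receptor list every IL1b library was above every TNFa library in 4 regions (8%) and every TNFa library above in 1 (2%). For TNF receptor signalling these were 6 (5.56%) and 2 (1.85%). Over all 46737 regions, 3070 (6.57%) had IL1b above without overlap and 2582 (5.52%) TNFa above. With 12 libraries none of the regions in either list was called, and the median differences were 0.06 and 0.08. With the shallow TNFa replicate 3 left out the counts were 6 and 2 for the IL-1 receptor list, 7 and 6 for the TNF receptor list, and 5199 (11.1%) and 5212 (11.2%) over all tested regions. The condition is easier to meet with fewer libraries. Some regions meet it with no difference between the cytokines, and how many did so here was not tested.

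Within these lists the region 15.7 kb beyond the start of MYD88, the adaptor of IL1R1, was strong with IL1b alone, at 20077, 19695 and 41355, with no peak in any TNFa library or control. The tested region nearest to the start of MYD88, 1.29 kb before it, had places 14952, 3438 and 7808 with IL1b and 15168, 3980 and 12204 with TNFa, so the groups overlapped there. Near IL1B, the gene of IL-1beta, a region 2.9 kb before the start had places 13626, 6547 and 20646 with IL1b, 35081 and 38929 with TNFa replicates 1 and 2, and none with replicate 3. The groups were apart, and the difference of 1.74 ± 0.60 did not pass (adjusted p = 0.760). A further region 19.02 kb before IL1A, which encodes IL-1alpha, was apart in the opposite sense, at 49132, 47092 and 32388 with IL1b and 7877, 24585 and 8563 with TNFa. For the TNF receptor family, TNFRSF9 had a region 13.4 kb before its start that was strong in IL1b alone, at 21605, 26879 and 25073. All 3 controls were strong there too, at 26000, 34659 and 27823, and the only TNFa peak was at 45087. CASP8, the protease that TNF receptors can activate, had a region 24.97 kb beyond its start that was apart toward TNFa, at 6704, 21767 and 23683 against 34152, 42553 and 46337 with IL1b. Its controls, at 19043, 8697 and 20479, were in the TNFa range.

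The NF-kB list, with subunits, inhibitors and kinases, had 113 tested regions near 22 genes, 54 of them strong in all 6 libraries. In 9 (7.96%) the IL1b libraries were above and in 5 (4.42%) the TNFa libraries, beside 6.57% and 5.52% over all tested regions. Without TNFa replicate 3 the counts were 12 (10.6%) and 10 (8.85%), beside 11.1% and 11.2%. None was called, and the median difference was -0.03. NFKBIA, which encodes the inhibitor that holds NF-kB in the cytoplasm, had the widest gap, in a region 20.2 kb beyond its start, chr14:35853511-35854011. Places were 149, 1223 and 1015 with IL1b, 8975, 4221 and 13000 with TNFa, and 12489, 16124 and 9187 in the controls. Every IL1b library was above every other library, and TNFa overlapped the controls. The difference was 3.79 ± 1.20, which did not pass (adjusted p = 0.760 with 6 libraries and 0.0976 with 12). At the start of NFKBIA the groups overlapped, at 38457, 44108 and 32100 with IL1b and 32475, 24648 and 36078 with TNFa.

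Other members of that list split in both directions. A region 29.3 kb before BIRC3, an inhibitor of cell death induced by NF-kB, had places 13292, 13537 and 33577 with IL1b and 47598, 35664 and none with TNFa. Its controls, at 17194, 33511 and 19152, lay within the IL1b range. TNIP1, a partner of the inhibitor TNFAIP3, had neighbouring regions 6.6 and 6.0 kb before its start that were strong with IL1b alone, and no control had a peak in either. Both took their peak in IL1b replicate 2 from the same interval. The stronger of them had IL1b places of 35941, 38303 and 21913 and no TNFa peak. In the opposite sense, the region at the start of N4BP1 shown above, chr16:48643887-48644387, had places 13949, 29507 and 29474 with TNFa, 48768 in IL1b replicate 3 and no peak in the other two. The controls, at 34670, 46653 and 46334, lay between the cytokines. Its difference was -1.11 ± 0.39 (adjusted p = 0.760). Further regions strong with TNFa alone lay 20.8 kb beyond the start of IKBKB, the kinase that releases NF-kB, and 4.1 kb before MAP3K14, the kinase of the noncanonical NF-kB route. Both were strong in 3 of 3 controls, at places 9622 to 44665 and 22425 to 38269.

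Among chemokines and cytokines, 118 regions near 32 genes were tested, with 12 apart toward IL1b (10.2%) and 10 toward TNFa (8.47%), a median difference of 0.06, and only the CCL26 region called with 12 libraries. Over all tested regions the shares apart were 6.57% and 5.52%. Without TNFa replicate 3 the counts of this list were 16 (13.6%) and 17 (14.4%), beside 11.1% and 11.2% over all tested regions. At the starts of CXCL1 and CXCL2 the groups were apart toward TNFa. CXCL1, a neutrophil attractant, had places 30960, 25829 and 4401 with TNFa and 31340, 37988 and 44514 with IL1b, a difference of -1.30 ± 0.62. Without TNFa replicate 3, the library with the place of 4401, this became -0.41. CXCL2, another one, had 18263, 9329 and 7546 with TNFa and 26696, 30161 and 20691 with IL1b, a difference of -1.23 ± 0.67. Neither passed (adjusted p = 0.763 and 0.780). CXCL8, the main neutrophil attractant of endothelium, overlapped, at 6751, 7563 and 10662 with TNFa and 3217, 16762 and 35430 with IL1b.

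The CCL2 locus held regions of both kinds. Beside the one 19.6 kb before the start, a region 2.5 kb before it had places 22130, 23355 and 11882 with TNFa and 34443, 37442 and 46150 with IL1b. All TNFa libraries were above all IL1b libraries there, while the controls spanned both at 47863, 19531 and 30473 (difference -1.09 ± 0.52, adjusted p = 0.763). CSF2 was apart toward TNFa at its start, chr5:131409224-131409724, with places 33379, 19914 and 23885 against 47206 in IL1b replicate 1 and no peak in the other two. The controls had 37246, 17100 and 32299, all better than the IL1b places. Its difference was -0.96 ± 0.36 (adjusted p = 0.760). Regions apart toward IL1b lay 28.7 kb before IL6, at 17957, 24160 and 30789 against 38342 and no other peak, and 23.6 kb from the start of CSF3, at 7985, 10822 and 17802 against 28463, 47165 and 39175. CSF3 encodes the granulocyte growth factor G-CSF. In the controls the IL6 region had no peak, and the CSF3 region had 29650, 18985 and 12525. At the start of CCL5, a T cell attractant, IL1b had 16334, 24964 and 24681, TNFa 34449, 47564 and none, and 1 control had a peak at 33779.

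Of 51 regions near 14 genes of leukocyte adhesion, 4 (7.84%) were apart toward IL1b and 1 (1.96%) toward TNFa, with none called and a median difference of 0.03. Over all tested regions the shares were 6.57% and 5.52%. Without TNFa replicate 3 the adhesion counts were 6 and 6 (11.76% each), so no lean was seen. The shares over all tested regions were then 11.1% and 11.2%. SELE, the gene of E-selectin, which captures rolling leukocytes, had a region 6.1 kb before its start that was strong with IL1b alone, at 35308, 30178 and 26484 against 46940, none and 47720. Controls 2 and 3 fell between them at 38322 and 38637, and the difference was 0.66 ± 0.30 (adjusted p = 0.763). Near the start of ICAM1 the groups overlapped, with 23976, 38795 and 21797 for IL1b and 9418, 16734 and 22363 for TNFa. The nearest tested region of VCAM1, 10.8 kb before the start, also overlapped, at 41897, none and 42216 against 48501, 34882 and none.

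Interferon response and antigen presentation genes, 155 regions near 43 genes, had 8 (5.16%) apart toward IL1b and 12 (7.74%) toward TNFa, beside 6.57% and 5.52% over all tested regions, with none called and a median difference of -0.09. Leaving out TNFa replicate 3 gave 21 and 21 (13.55% each), without a lean, beside 11.1% and 11.2% over all tested regions. IRF1, an interferon response factor and an NF-kB target, was apart toward IL1b at its start, at 7228, 8486 and 4926 against 12613, 18568 and 11419, with controls at 9491, 11247 and 6341. USP18, a protease that removes ISG15 from proteins, had a region 7.49 kb beyond its start that was apart toward TNFa, at 5709, 6266 and 911 against 14487, 12396 and 18126. Its controls, at 13781, 6715 and 4552, reached both the IL1b and the TNFa range. The difference of -2.21 became -1.31 without TNFa replicate 3, the library with the place of 911. ISG15 had a region 5.85 kb beyond its start with TNFa places of 33511, 37050 and 36691 and no peak in any IL1b library or control. Its difference was -0.48 ± 0.25 (adjusted p = 0.779).

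For AP-1 and immediate early genes, 5 (3.23%) and 8 (5.16%) of 155 regions were apart toward IL1b and TNFa, beside 6.57% and 5.52% over all tested regions, with a median difference of -0.08 and none called. These became 17 (10.97%) and 16 (10.32%) when TNFa replicate 3 was left out, beside 11.1% and 11.2% over all tested regions. FOSL2, an AP-1 subunit, had regions 16.6 kb beyond and 26 kb before its start that were both apart toward TNFa. The first had places 4539, 13357 and 5078 with TNFa and 28139, 30137 and 22877 with IL1b, and the controls, at 7802, 12014 and 17001, lay on the TNFa side (difference -1.99 ± 0.73, adjusted p = 0.760). ATF3, a stress-induced partner of AP-1, was apart toward IL1b 2.0 kb from its start, at 6316, 6144 and 7653 against 11388, 15839 and 37803. Here the controls, at 6152, 6102 and 4442, lay on the IL1b side.

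Endothelial identity genes gave 295 regions near 56 genes, the largest list, with 24 apart toward IL1b (8.14%) and 16 toward TNFa (5.42%). Over all tested regions the shares were 6.57% and 5.52%. Without TNFa replicate 3 the endothelial counts were 40 (13.6%) and 32 (10.8%), beside 11.1% and 11.2% over all tested regions. The median difference of the list was -0.02, and the TAL1 region was the only one called with 12 libraries. EDN1, the gene of the vasoconstrictor endothelin-1, had a region 33.97 kb beyond its start with places 1130, 131 and 1485 for IL1b and 11821, 4689 and 5931 for TNFa. All IL1b libraries were above all TNFa libraries, and the controls, at 1286, 1084 and 5167, reached the IL1b range. The difference was 3.52 ± 1.21 (adjusted p = 0.760). NRP2 had a region 31.9 kb before its start with places 423, 965 and 2131 with IL1b, 12120, 2763 and 9300 with TNFa, and 6752, 10027 and 9869 in the controls. There TNFa and controls overlapped and IL1b was above both (difference 2.83 ± 1.14, adjusted p = 0.760). ENG, a co-receptor for TGF-beta family ligands, was apart toward TNFa 9.54 kb beyond its start, at 5694, 5050 and 2742 against 24345, 21013 and 38358. Its controls, at 10844, 7207 and 5595, were nearer to TNFa, and the difference was -2.65 ± 0.77 (adjusted p = 0.760). KLF4, a flow-induced transcription factor, was also apart toward TNFa 15.2 kb before its start, at 4839, 5779 and 7455 against 24862, 23471 and 14409, with controls at 12923, 9072 and 8813.

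Mesenchymal and smooth muscle genes, whose activity marks endothelial cells that change state, had 7 of 100 regions apart toward IL1b and 3 toward TNFa. Over all tested regions the shares were 6.57% and 5.52%. Without TNFa replicate 3 the mesenchymal counts were 15 and 8, beside 11.1% and 11.2% over all tested regions. The median difference of this list was -0.01. Beside TGFBR2, a region 20.4 kb from the start of SNAI1, a repressor of cell junction genes, was apart toward IL1b at 2213, 235 and 2393 against 6361, 3887 and 6453. ZEB2, a repressor of the same kind, had a region 2.74 kb beyond its start that was strong with IL1b alone, at 15734, 25378 and 40647, and no TNFa peak. PDGFRB, shown above, sat at the threshold itself: its region was at 43621, 44486 and 42557 with IL1b, just inside the place of 45000, and at 48459, 47543 and none with TNFa, just outside. Its difference of 0.16 ± 0.21 was small. Of 77 epithelial regions 5 (6.49%) and 3 (3.90%) were apart toward IL1b and TNFa, and of 60 blood cell regions 4 (6.67%) and 3 (5%). Leaving out TNFa replicate 3 gave 8 (10.4%) and 11 (14.3%) epithelial and 5 (8.33%) and 9 (15%) blood cell regions. The order in both lists thus changed, on few regions, beside 11.1% and 11.2% over all tested regions. Housekeeping loci had 3 of 95 regions apart toward IL1b (3.16%) and 11 toward TNFa (11.6%), with a median difference of -0.12. Without TNFa replicate 3 these shares were 6.32% and 15.8%, beside 11.1% and 11.2% over all tested regions.

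**Figure D5:**
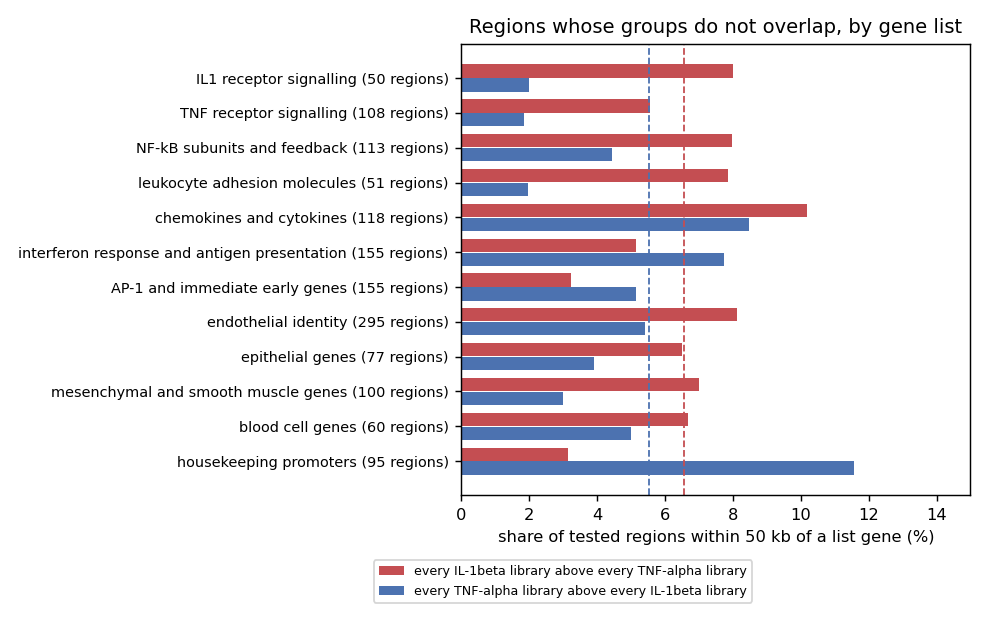
Share of the tested regions near the genes of each list (horizontal axis, percent) in which all 3 IL1b libraries were above all 3 TNFa libraries, or the reverse. Dashed lines give the shares over all 46737 regions, 6.57% and 5.52%. The IL1b bars run from 3.16% to 10.2% and the TNFa bars from 1.85% to 11.6%, the longest TNFa bar being that of the housekeeping list.

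Across a panel of 31 genes of these pathways, taking the region at the start (18 genes) or else the nearest tested one, 20 were strong in all 6 libraries and 0 were called with 6 or 12 libraries. The largest difference toward IL1b was 1.05 at IRF1, and the differences had a median of -0.17 and standard errors of 0.24 to 1.05. The groups were apart in 4: SELE and IRF1 toward IL1b, CXCL1 and CSF2 toward TNFa. Promoters of TNFAIP3, RELB, BIRC3 and NFKB2, which NF-kB itself induces, were strong in all 6 libraries, with overlapping groups. RELB had places 8839, 5457 and 7166 with IL1b and 17640, 7990 and 20156 with TNFa, overlapping by 1 library (difference 1.01). The differences of the other 3 were below 0, at -0.57 for TNFAIP3, -0.40 for BIRC3 and -0.71 for NFKB2, which became 0.23 without TNFa replicate 3.

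The one-sided regions were also looked up in the other endothelial line. Of the 589 regions strong with IL1b alone in TeloHAEC, 308 had no strong peak in any of the 6 Eahy926 cytokine libraries, 65 had one in more IL1b than TNFa libraries and 116 in fewer. For the 413 TNFa regions, 160 had none, 57 had one in more TNFa than IL1b libraries and 86 in fewer. The same shares over all tested regions were not counted, so whether these are few or many cannot be judged. The difference between the lines was tested for all 46737 regions, and 3 (0.00642%) were called, none near a listed gene.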

How the data were processed

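ATAC-seq libraries of 3 IL1b- and 3 TNFa-treated TeloHAEC cultures were compared. The submitters' processing notes name Bowtie2 and the hg19 build. Peaks were called with MACS2 2.1.1.20160309, per the file headers, on each library alone at a p threshold of 0.001. No input sample was used, tags were treated as single-end, and 1 was kept per position. In the deposited lists the authors give p-values and q-values on a -log10 scale. A fold, the ratio of pileup to local background, is deposited for each peak too. They hold no counts per region, so a call depends on depth, and only places within a list were compared.

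Summits of 1 peak were merged, the 22 autosomes kept and peaks ranked by p, with ties broken by fold. Each list was cut at 49774 peaks, the length of the shortest of 30. A peak belonged to a region when it covered 50% of the shorter of both. Rank scores were tested with limma 3.58.1 in R 4.3.3 (trend, two-sided, Benjamini-Hochberg over 46737 regions, threshold 0.05), on the 6 libraries. Errors are standard errors of the fitted difference. The fit was tested on simulated data. Python 3.11.15, numpy 2.4.6, pandas 2.3.3 and matplotlib 3.10.9 were used.

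The members, the 12 gene lists and the panel were chosen with earlier results of these data known. Regions were named by rule: called ones, those strong with 1 cytokine near a listed gene (up to 12 per cytokine by p, at most 2 per gene), and the panel. Further regions near a listed gene, apart without overlap or strong in all 6 libraries and 0 controls, were chosen after their values were seen. Starts of 317 of 322 listed genes on hg19 were written from general knowledge, because no annotation of that build was used here. All 317 lie on the same chromosome in the RefSeq table of GRCh38.p14, and 294 of 295 neighbours are in the same order. On average 52.5% of these starts had a strong peak within 1 kb in the 6 libraries, against 6.36% when moved by 20 kb. One gene of the panel is not reported here.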

Additional observations from a re-analysis of the deposited data

Results flagged for a closer look

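The IL1b to TNFa difference was not the same in TeloHAEC and Eahy926 in 3 regions, by a limma test of the difference between lines over 46737 regions at an adjusted p under 0.05 (3897 at an unadjusted p under 0.05). At chr5:76126875-76127375 IL1b had places 905, 1481 and 2666 in TeloHAEC and TNFa 18677, none and 16834, while in Eahy926 IL1b had 40502 and no other peak and TNFa 3698, 8877 and 11117. The difference between lines was 6.73 (adjusted p = 0.0115), and no TeloHAEC control had a peak. At chr1:165451370-165451870 IL1b had 2230, 684 and 372 and TNFa 15316, 12625 and 5966 in TeloHAEC, and no IL1b peak against TNFa places of 7250, 9463 and 4856 in Eahy926. That difference was 6.51 (adjusted p = 0.0454). At chr7:44887163-44887663 the order was the other way, with TeloHAEC TNFa at 6297, 2136 and 368 and IL1b at 28591, none and 46191, and Eahy926 IL1b at 3533, 2851 and 1747 and TNFa at 29907, 34741 and none. Its difference was -8.41 (adjusted p = 0.0115). With an overlap of 1 bp 1 region was called, and with a replicate block 0.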

How the results depend on the processing

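The number of called regions, 2 with the 6 libraries, was 4 with lists shortened to the shortest of the 6, 0 when ordered by fold enrichment (3047 at an unadjusted limma p under 0.05), 0 with an overlap of 80% (2715), 0 without the trend (2897), 4 with no filter and 19 with normal scores. It was 105 when 12 libraries shared the spread, 57 in that fit without TNFa replicate 3, and 24 when it was left out and lists were shortened to the shortest of the other 5. The last pair of settings was chosen after seeing the data. With a replicate block it was 12, although the correlations of deviations between same-numbered libraries were -0.00785 to -0.00121, and no library correlated best with its own number. Leaving out 1 library gave 0 to 8 calls, with 0 (3263 unadjusted) without TNFa replicate 2. Regions strong with IL1b alone were then 1028 to 1246 and with TNFa alone 792 to 1103, since fewer libraries had to meet the condition, and 1872 and 1484 with the 5 deeper libraries. Regions strong in every library were 15109 with the 30000 strongest peaks and 61671 with the 5 deeper libraries. The Jaccard difference ran from -0.003477 to 0.02905 when 1 library was left out, negative without any 1 of the IL1b replicates. Regions called for the difference between lines were 1 with an overlap of 1 bp and 0 with the replicate block. The shallow TNFa replicate 3 limits the whole comparison: without it, regions strong in TNFa alone fall under the filter of 3 libraries at the same list length. With the longer lists of the other 5 libraries, the regions at the starts of N4BP1 and CSF2 could be tested, kept their sign and were not called.

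Of 163 regions named by position or gene, 143 kept the sign of their difference under every setting that gave a value, and 20, none of them called, did not. With lists ordered by fold enrichment the difference turned to -0.44 at the CCL2 region 19.6 kb before the start, -0.11 near MYD88, -0.0037 near TRAF1, 0.30 near CXCL10 and -0.19 near TNFRSF1A. It became -0.19 near FLT1 with an overlap of 80% and -0.037 at the start of CCL2 with normal scores. In the fits that leave out TNFa replicate 3, with 12 libraries or with longer lists, it was -0.085 near IL1R1, -0.064 near TRAF1, 0.23 near NFKB2 and CX3CL1, 0.024 near CXCL10, -0.31 near CDH5, 0.36 near KDR and 0.32 at the start of NRP2. Leaving out 1 library in turn gave -0.085 to 0.62 near IL1R1, -0.26 to 0.88 near MYD88, -0.064 to 0.26 near TRAF1, -1.22 to 0.23 near NFKB2, -0.12 to 0.34 near CCL2 and -1.58 to 0.15 near CXCL8. It gave -0.63 to 0.32 near CX3CL1, -0.50 to 0.19 near CXCL10, -0.36 to 0.17 near IL6, -0.65 to 0.032 near LIF, -0.11 to 0.060 near VCAM1 and -0.31 to 0.50 near CDH5. The other ranges were -0.62 to 0.36 near KDR, -0.075 to 0.30 near PECAM1, -0.77 to 0.32 near NRP2, -0.35 to 0.018 near TAL1, -0.30 to 0.37 near GATA2 and -0.11 to 0.46 near FLT1.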

Other observations

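The one-sided regions were spread over the autosomes. The share of tested regions strong with IL1b alone ran from 0.724% on chromosome 19 to 2.05% on chromosome 13, and that with TNFa alone from 0.183% on chromosome 21 to 1.68% on chromosome 4. Of the 589 IL1b regions, 22 had another of them within 50 kb, and 2 of the 413 TNFa regions did. Among the strongest regions, 2850 had a place of 10000 or better in all 6 libraries, and the middle size of their difference between the cytokines was 0.70. Differences above 2 were found in 556 tested regions and below -2 in 337, of which 326 and 167 had groups that did not overlap.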
